A study of Mus musculus with 12 samples.

Results

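*Alx1* and *Alx4* encode aristaless-like homeodomain transcription factors, and they were followed here through every probe set that the array annotation assigns to either gene, 3 of 45037 probe sets in all. Of these, 2 belong to *Alx1*, called the brighter and the dimmer by their mean signal, and 1 belongs to *Alx4*, out of 18193 genes with a probe set of their own. Both genes are known from the mesenchyme of the frontonasal region, most of which comes from cranial neural crest, where their products bind DNA through a paired-class homeodomain. In mouse, loss of *Alx1* disrupts the cranial vault and the midface, and loss of *Alx4* gives extra digits and cranial defects. In human, mutations of either gene cause frontonasal dysplasia.

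The data are Affymetrix Mouse430 2.0 arrays of E10.5 facial tissue, with 3 pools in each of 4 groups. Nasal and maxillary prominences were dissected from Neo/Null embryos, labelled NeoNull (aflox/null), and from Neo/Wt embryos, which the labels call control (aflox/wt). Both genotypes thus carry a *Tfap2a* Neo allele, a hypomorph in which a *neo* cassette lies between coding exons, and they differ in the second allele, null in Neo/Null and wild type in Neo/Wt. The mice were of an outbred Black Swiss stock, and each array holds RNA pooled from several embryos. A fraction of Neo/Null embryos has an open neural tube, and whether such embryos entered the pools is not stated. The nasal sample is named frontal nasal in the labels.

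Values are log2 signals per probe set as deposited, where a step of 1 is a doubling. Each group of 3 arrays has 1 detection call per probe set in the deposited table, which is present, variable or absent. Array medians lay between 5.13 and 5.19. The brightest probe set of the targeted gene, *Tfap2a*, had group means of 9.10 to 9.15, and Neo/Null differed from Neo/Wt by 0.01 (SE 0.07) in the nasal and by 0.06 (SE 0.07) in the maxillary samples on the log2 scale. Its place in the gene with respect to the altered exons is not given, so it is no check of the genotypes. The other *Tfap2a* probe sets differed in sign, with 0.08 (SE 0.08) and -0.05 (SE 0.11) in nasal and 0.13 (SE 0.08) and -0.15 (SE 0.11) in maxillary samples. All 12 listed crest mesenchyme markers were called present in every group. Pool 3 of the Neo/Wt maxilla stood apart in neuronal RNA: the summed linear signal of 12 neuronal markers was 1020 there and 2920 to 4820 in the other maxillary pools. The genotype difference of *Alx1* in maxillary tissue is therefore also given without it. So are the list counts and medians for that comparison, and the comparison of the *Alx1* genotype difference between prominences. The nasal against maxillary values of the gene lists in Neo/Wt include this pool.

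*Alx1* was enriched in nasal tissue in both genotypes. At the brighter probe set the 3 Neo/Wt nasal pools read 11.09, 11.16 and 10.75, and the 3 Neo/Wt maxillary pools read 9.65, 9.71 and 9.22. In Neo/Null the nasal pools read 10.98, 11.09 and 10.69 and the maxillary pools 8.97, 9.06 and 8.91. All 6 nasal pools therefore lay above all 6 maxillary pools, and the Neo/Null maxillary pools were the lowest of all. The probe set was called present in all 4 groups.

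**Figure D1:**
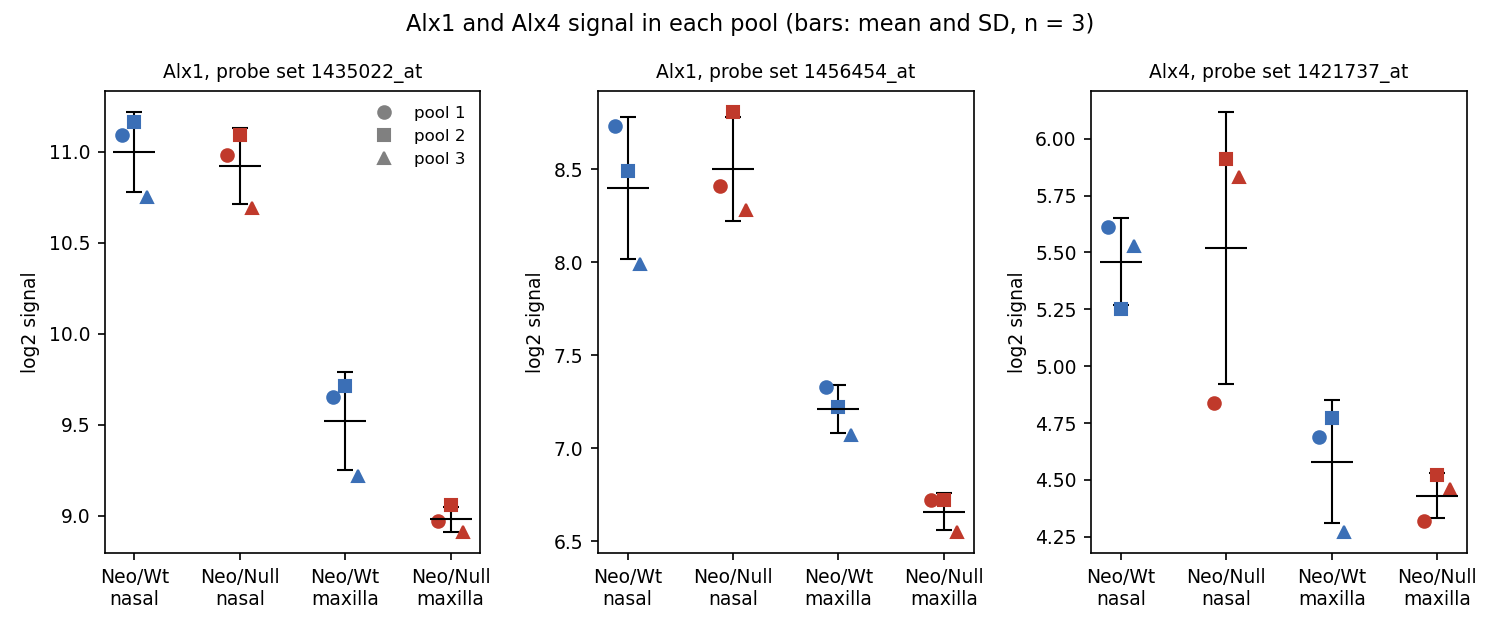
Log2 signal (vertical axis) of the 2 *Alx1* probe sets and the *Alx4* probe set in each pool, by group, with the pool number as symbol and the mean and SD (n = 3) as bars. The vertical axes differ between panels and do not start at 0. Nasal pools lie above maxillary pools at each probe set, and at both *Alx1* probe sets the Neo/Null maxillary pools lie below the Neo/Wt maxillary pools.

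In Neo/Wt embryos *Alx1* was 2.78-fold higher in nasal than in maxillary prominences (log2 difference 1.48, SE 0.14, limma adjusted p = 2.53e-05). In Neo/Null embryos it was 3.83-fold higher (log2 difference 1.94, SE 0.14, limma adjusted p = 1.79e-06). Across the arrays 8.23% of the probe sets tested differed between the prominences in Neo/Wt at this threshold, 4% with a higher level in nasal tissue, and 9.65% differed in Neo/Null, 5.65% with a higher level in nasal tissue. Nasal pools lay above all maxillary pools with no overlap for 11.2% of probe sets in Neo/Wt and 16.7% in Neo/Null. Ranked by p among all tested probe sets with a higher nasal level, it was number 93 in Neo/Wt and number 62 in Neo/Null.

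The dimmer *Alx1* probe set gave the same order of groups in maxillary tissue and the same direction between prominences. It read 8.73, 8.49 and 7.99 in Neo/Wt nasal pools and 7.33, 7.22 and 7.07 in Neo/Wt maxillary pools. In Neo/Null it read 8.41, 8.81 and 8.28 in nasal pools and 6.72, 6.72 and 6.55 in maxillary pools. No nasal pool overlapped a maxillary pool. Between prominences it differed by 1.20 in Neo/Wt (SE 0.17, limma adjusted p = 0.000576) and by 1.84 in Neo/Null (SE 0.17, limma adjusted p = 1.17e-05) on the log2 scale. Both probe sets were measured on the same RNA, so they repeat the measurement and not the experiment.

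*Alx4* was also higher in nasal tissue, at a signal near the limit of detection. The Neo/Wt nasal pools read 5.61, 5.25 and 5.53 and the Neo/Wt maxillary pools 4.69, 4.77 and 4.27. The Neo/Null nasal pools read 4.84, 5.91 and 5.83 and the Neo/Null maxillary pools 4.32, 4.52 and 4.46. Nasal and maxillary pools did not overlap within either genotype, but pool 1 of the Neo/Null nasal group, at 4.84, came close to the highest maxillary pool, at 4.77. The probe set was called present in both nasal groups, variable in Neo/Null maxilla and absent in Neo/Wt maxilla.

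Since it was called absent in Neo/Wt maxilla, its maxillary signal there may be background, and the fold of the measured means can understate the true one. In Neo/Wt the measured mean of *Alx4* was 1.85-fold higher in nasal prominences (log2 difference 0.89, SE 0.23, limma adjusted p = 0.0307). The 95% confidence interval of that fold was 1.31 to 2.61. In Neo/Null, where the maxillary call was variable, the measured means differed 2.13-fold (log2 difference 1.09, SE 0.23, limma adjusted p = 0.00800). It entered these tests through its nasal detection calls alone. Over all probe sets with no detection filter, the adjusted p was 0.0518 in Neo/Wt and 0.0139 in Neo/Null. The call in Neo/Wt was also lost without any 1 of 4 pools, with an adjusted p of 0.107 without nasal pool 1, 0.0887 without nasal pool 3, 0.0608 without maxillary pool 1 and 0.111 without maxillary pool 3. With no array left out, the 95% confidence interval of the difference in measured means was 0.39 to 1.38 in Neo/Wt and 0.59 to 1.59 in Neo/Null.

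**Figure D2:**
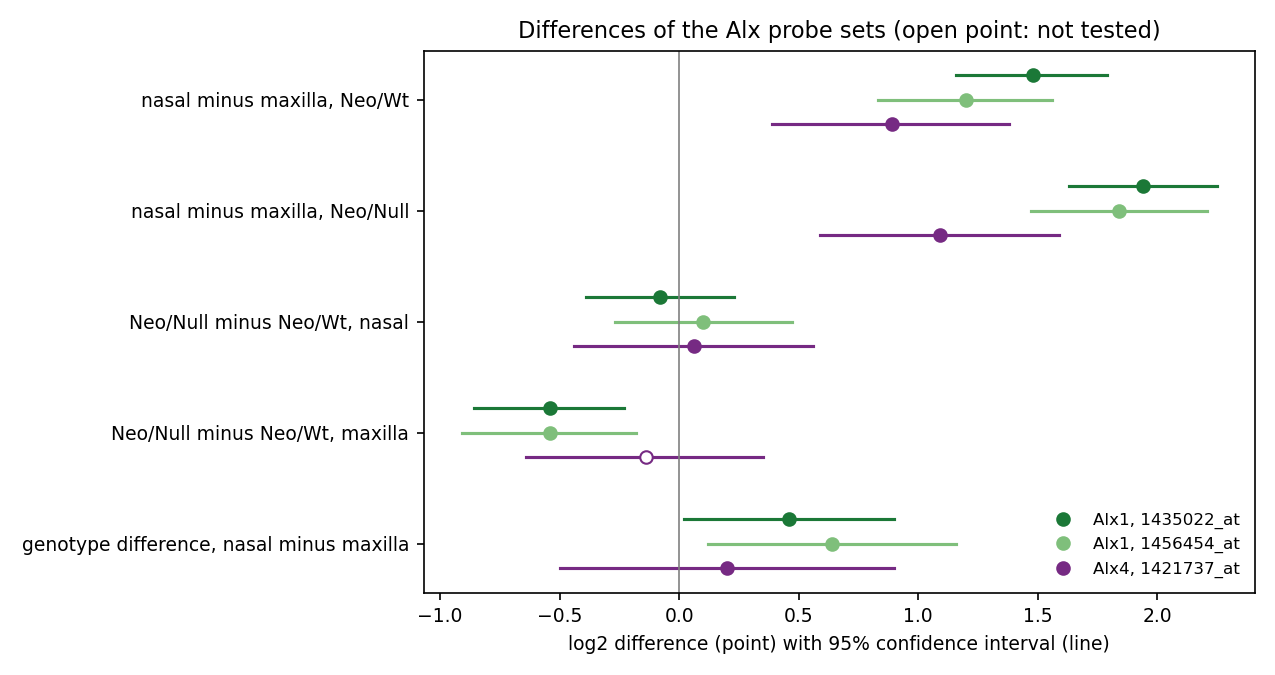
Log2 differences (points) with 95% confidence intervals (lines) of the 3 probe sets, for nasal minus maxilla in each genotype, for the genotypes in each prominence (Neo/Null minus Neo/Wt), and for nasal against maxillary genotype differences. The open point was not tested. The intervals of all 3 probe sets lie above 0 for nasal minus maxilla in both genotypes, and for the genotype difference in maxilla those of both *Alx1* probe sets lie below 0.

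*Alx1* was set beside other genes of facial patterning. Of 22 listed homeobox genes of the paired class, to which the Alx genes belong, 11 were tested in Neo/Wt, with 7 higher in nasal tissue and 2 higher in maxillary tissue at an adjusted p under 0.05. Their median log2 difference was 1.43, against -0.01 over all 10967 genes tested. Of those, 580 were higher in nasal and 493 in maxillary tissue at that threshold. *Pax7*, a paired box gene of dorsal neural tube and crest, had the value 4.48 (SE 0.17, limma adjusted p = 4.34e-09). *Otx1* and *Otx2*, homeobox genes of the rostral head, had differences of 1.43 and 2.98 (limma adjusted p = 7.53e-06 and 8.94e-05). *Prrx1*, a paired-related homeobox gene of head and limb mesenchyme, ran the other way at -1.56 (SE 0.09, limma adjusted p = 2.19e-07). *Otx2* and *Pax6* of the paired class are also listed markers of forebrain neuroepithelium. Of 10 tested markers of that list, 8 were higher in nasal and 1 in maxillary tissue of Neo/Wt at that threshold, with a median of 1.31. The part of tissue composition in these differences was not tested. Genes called present in only 1 of the prominences were tested too, and they entered through that prominence alone. *Otx2* was such a gene, not called present in Neo/Wt maxilla. In maxilla *Pax7*, *Gsc* and *Sp8* were not called present in both genotypes. In nasal tissue *Dlx1*, *Lhx8* and *Barx1*, named below, were not called present in both genotypes. The low side of such a difference may be background. The differences, counts and medians between prominences carry this limit, here and for the lists that follow.

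Of 18 listed genes of frontonasal patterning 17 were tested in Neo/Wt. At an adjusted p under 0.05 they counted 7 higher in nasal and 3 higher in maxillary tissue, with a median log2 difference of 0.06 over the 17. *Sp8*, a zinc finger gene of facial ectoderm, had a difference of 3.42 (limma adjusted p = 1.36e-08). *Crabp1*, which encodes a cellular retinoic acid binding protein, had 1.38 (limma adjusted p = 1.08e-06), and *Tfap2b*, an AP-2 gene, had 1.12 (limma adjusted p = 8.17e-06). Of 20 listed maxillary and oral genes 15 were tested, with 6 higher in nasal and 6 in maxillary tissue at that threshold. *Dlx1* and *Lhx8*, homeobox genes of the first arch, had differences of -4.31 and -5.40 (limma adjusted p = 2.9e-10 and 2.47e-07), and *Barx1*, a homeobox gene of oral mesenchyme, had -4.07 (limma adjusted p = 3.45e-09). The 6 genes of this list higher in nasal tissue at that threshold were named after their values were seen. They were *Shox2* with 2.14, *Gsc* with 1.43, *Foxf1* with 1.41, *Foxd1* with 1.11, *Pax9* with 0.92 and *Dlx5* with 0.85. Among 15 tested genes of Hedgehog and Wnt signaling, 2 were higher in nasal tissue at that threshold. These were the Hedgehog co-receptor genes *Boc* and *Cdon*, with 0.66 and 0.52 (limma adjusted p = 0.000131 and 0.000515). *Shh*, the ligand, was higher in maxillary tissue, with -0.48 (limma adjusted p = 0.0151).

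**Figure D3:**
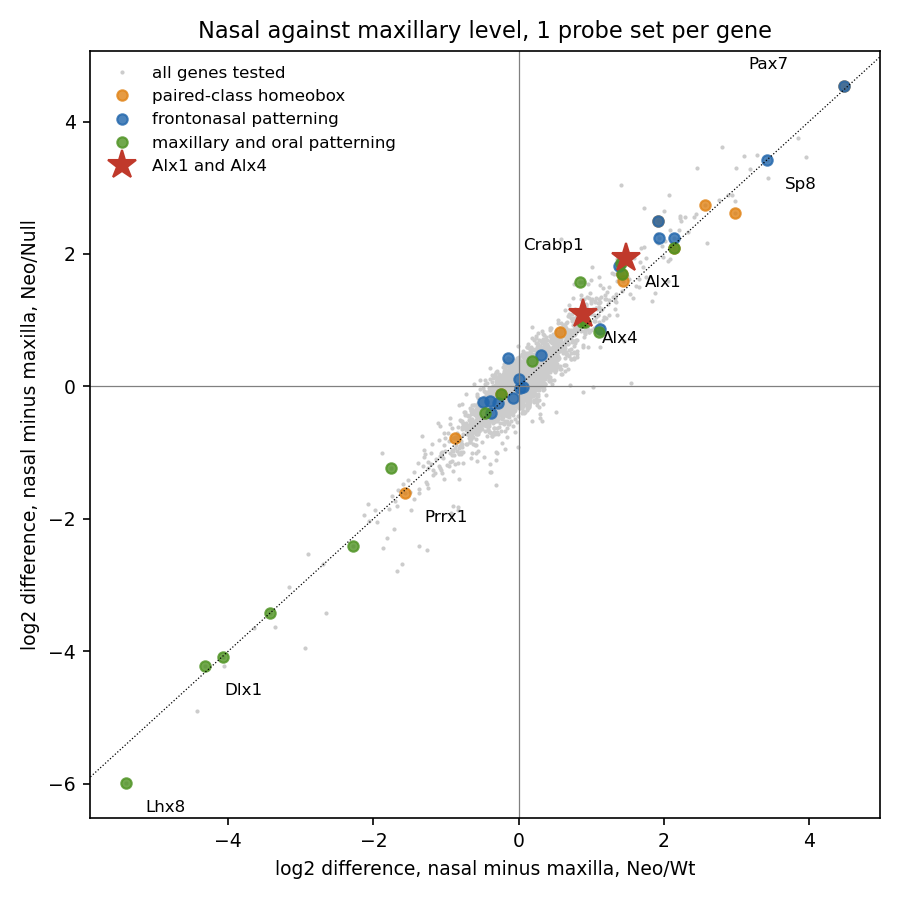
Log2 difference of nasal minus maxillary tissue in Neo/Wt (horizontal axis) and in Neo/Null (vertical axis), 1 probe set per gene, with the listed genes in colour, *Alx1* and *Alx4* as stars and the dotted line marking equal differences. Both stars lie at the upper right of the origin, *Alx1* at 1.48 and 1.94, far from *Pax7* at 4.48 and 4.54 and *Dlx1* at -4.31 and -4.22. Neither *Pax7* in maxilla nor *Dlx1* in nasal tissue was called present in both genotypes.

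In maxillary prominences *Alx1* was lower in Neo/Null than in Neo/Wt at both probe sets, without passing the adjusted test. At the brighter probe set Neo/Null pools averaged 8.98 ± 0.07 (SD, n = 3), against 9.52 ± 0.27 (SD, n = 3) for Neo/Wt pools, so the Neo/Null level was 0.686-fold (95% confidence interval 0.552 to 0.851). On the log2 scale they differed by -0.54 (SE 0.14, unadjusted p = 0.00240, limma adjusted p = 0.794). At the dimmer probe set Neo/Null pools averaged 6.66 ± 0.10 (SD, n = 3), against 7.21 ± 0.13 (SD, n = 3), and differed by -0.54 (SE 0.17, unadjusted p = 0.00712, limma adjusted p = 0.913). All 3 Neo/Null pools lay below all 3 Neo/Wt pools at each probe set (two-sided p = 0.1 by exact permutation, which 3 pools against 3 cannot go below).

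Of 21213 probe sets tested in maxillary tissue 0% passed limma's adjusted test, 1.65% were lower in Neo/Null at an unadjusted p under 0.05 and 5.22% were lower with no overlap between the pools. Both *Alx1* probe sets were in each of these last groups. By p, the brighter was number 19 and the dimmer number 42 of the probe sets with a lower level in Neo/Null. With the pool number as a block, 4 probe sets passed the adjusted test in place of 0, and the *Alx1* probe sets, with adjusted p = 0.0701 and 0.455, were not among them. Without Neo/Wt maxilla pool 3, the pool low in neuronal markers, the difference at the brighter was -0.70 (limma adjusted p = 0.185) and that at the dimmer -0.61 (limma adjusted p = 0.336). With any 1 array left out the difference ran from -0.70 to -0.45 at the brighter and from -0.61 to -0.48 at the dimmer.

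*Alx4* could not be tested for genotype in maxillary tissue, where it was not called present. Neo/Null pools averaged 4.43 ± 0.10 (SD, n = 3) there and Neo/Wt pools 4.58 ± 0.27 (SD, n = 3), and the log2 difference was -0.14 (95% confidence interval -0.64 to 0.35). The pools of the 2 genotypes overlapped.

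In nasal prominences, where both genes were at their highest, no genotype difference was detected. At the brighter *Alx1* probe set Neo/Null pools averaged 10.92 ± 0.21 (SD, n = 3) and Neo/Wt pools 11 ± 0.22 (SD, n = 3), and the log2 difference was -0.08 (95% confidence interval -0.39 to 0.23). At the dimmer the sign was opposite, with 0.10 and an interval of -0.27 to 0.47. For *Alx4* the difference was 0.06, with an interval of -0.44 to 0.56. The genotypes overlapped at all 3 probe sets, and limma's unadjusted p was 0.578, 0.572 and 0.798. In the whole nasal comparison 0.00474% of probe sets, which is 1 of 21088, passed the adjusted test, and none of the Alx probe sets did. In folds, the interval at the brighter *Alx1* probe set ran from 0.761 to 1.17.

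The genotype difference of *Alx1* was compared between the prominences directly. The nasal difference exceeded the maxillary difference by a log2 value of 0.46 at the brighter probe set (95% confidence interval 0.02 to 0.90, unadjusted p = 0.0417) and of 0.64 at the dimmer (95% confidence interval 0.12 to 1.16, unadjusted p = 0.0194). Neither passed after adjustment over all probe sets (limma adjusted p = 0.999 for each). An exact permutation of genotype within each prominence gave two-sided p = 0.170 and p = 0.0750. Of 22148 probe sets in that comparison 0% passed after adjustment, and 2.86% had a higher nasal difference at an unadjusted p under 0.05. Without Neo/Wt maxilla pool 3 the excess was 0.62 at the brighter (limma adjusted p = 0.535) and 0.71 at the dimmer (limma adjusted p = 0.581). For *Alx4* the difference was 0.20, with an interval of -0.50 to 0.90.

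Other genes of the lists were set beside *Alx1* in the maxillary comparison. Of 15 tested frontonasal genes 11 were lower in Neo/Null, with a median log2 difference of -0.11, against -0.02 over all 10313 genes tested, of which 42.3% were higher. By limma 0 of the 15 passed at an adjusted p under 0.05, and 3 were lower at an unadjusted p under 0.05. These were *Crabp1*, with -0.40 (SE 0.10), *Pax3*, a paired box gene of neural crest, with -0.52 (SE 0.22), and *Tbx2*, a T-box repressor gene, with -0.32 (SE 0.14). *Tfap2b* was higher, with 0.30 (SE 0.10). Of 7 tested paired-class genes 5 were lower, with a median of -0.17, and *Pax3* was the 1 with an unadjusted p below the same limit. Of 14 tested maxillary and oral genes 6 were lower, among them *Dlx5*, a homeobox gene of the distal first arch, with -0.67 (SE 0.13), and *Foxf1*, a forkhead gene of mesenchyme, with -0.50 (SE 0.13). In the Hedgehog and Wnt list 8 of 14 were lower, among them *Cdon*, with -0.28 (SE 0.07), while *Tcf7l2*, which encodes a transcription factor of Wnt signaling, was higher, with 0.34 (SE 0.10). Without Neo/Wt maxilla pool 3, which was done for the lists after seeing the data, 11 of 15 frontonasal genes were lower with a median of -0.23, 5 of 7 paired-class genes with a median of -0.05, 9 of 14 maxillary and oral genes with a median of -0.11, and 10 of 14 Hedgehog and Wnt genes with a median of -0.06. Of the genes named above, *Pax3* then had a difference of -0.84, *Tbx2* -0.52, *Crabp1* -0.50, *Foxf1* -0.56, *Dlx5* -0.64 and *Cdon* -0.27. Those of *Tfap2b* and *Tcf7l2* were 0.24 and 0.37. By limma 0 genes of these lists passed the adjusted test without that pool. At an unadjusted p under 0.05 the lower genes then numbered 6, 1, 4 and 4 in the same order of lists. Over all 10313 genes tested, 611 were lower at that limit without the pool and 210 with it, so the count rose across the array as well.

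**Figure D4:**
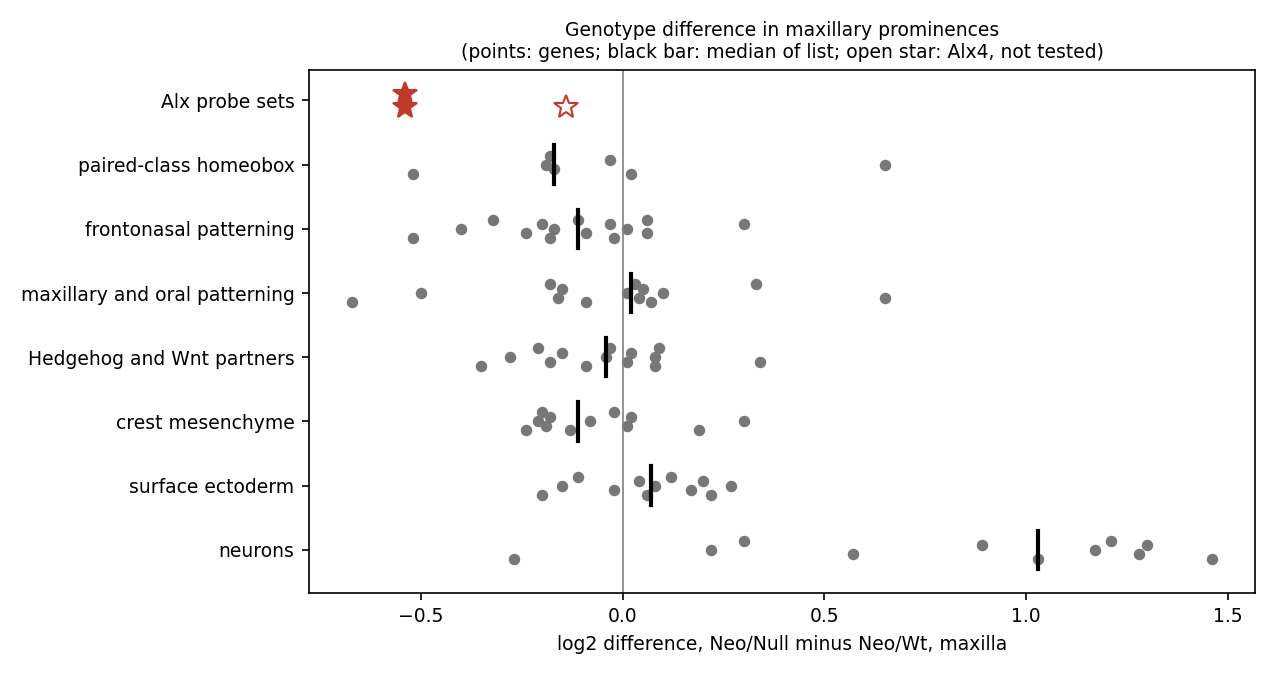
Log2 difference of Neo/Null minus Neo/Wt in maxillary prominences (horizontal axis) for the Alx probe sets (stars) and the tested genes of each list (points), with the median of each list as a black bar. Both *Alx1* stars lie at -0.54, lower than all tested genes of the crest mesenchyme list, whose median is -0.11, and the median of the neuronal genes is 1.03, or 0.28 without Neo/Wt maxilla pool 3.

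Markers of the cell types in the dissected tissue were read in the same maxillary pools, and by limma 0 of them passed the adjusted test for genotype. At an unadjusted p under 0.05, 5 neuronal genes were higher, and 280 of all 10313 genes tested. Without Neo/Wt maxilla pool 3 these numbers were 2 and 458. In bulk tissue fewer cells of a type and less RNA per cell cannot be told apart. The summed signal of the 12 crest mesenchyme markers was 10700 to 12200 in Neo/Null and 10700 to 13100 in Neo/Wt maxillary pools. Of these genes 8 of 12 were lower in Neo/Null, with a median log2 difference of -0.11. Of 12 tested surface ectoderm genes 8 were higher, with a median of 0.07, and summed signals ran from 6090 to 6990 in Neo/Null and from 5410 to 6780 in Neo/Wt. Of 11 tested neuronal genes 10 were higher in Neo/Null, with a median of 1.03. That median rests on Neo/Wt maxilla pool 3, without which 9 of 11 were higher with a median of 0.28. Without this pool 10 of 12 crest mesenchyme genes were lower with a median of -0.20, and 8 of 12 surface ectoderm genes were higher with a median of 0.11. In that fit 1 of 3 tested forebrain neuroepithelium genes passed limma's adjusted test, *Emx2*, named after its value was seen, with -1.52 (SE 0.18). Of 6 listed markers of head mesoderm and muscle on the array, 4 were called present in Neo/Null maxilla and 3 in Neo/Wt maxilla. *Myod1* and *Tbx1* were not called present in either maxillary group. Of the 3 tested for genotype, 1 was higher and 2 were lower in Neo/Null, with a median of -0.02. The part of cell composition in the *Alx1* difference was not tested.

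Pool 3 held the lowest *Alx1* reading of every group at both probe sets. At the brighter it was 10.75 against 11.09 and 11.16 in Neo/Wt nasal, and 9.22 against 9.65 and 9.71 in Neo/Wt maxilla. Among the 20153 probe sets called present in all 4 groups, 4.67% had pool 3 lowest in all 4, while 1.24% had pool 1 and 2.22% pool 2 lowest in all 4. Of the 8 marker lists 3 also had their lowest mean log2 signal in pool 3 of every group, those of crest mesenchyme, neurons and blood. In pool 3 that mean ran from 9.04 to 9.40 over the groups for crest mesenchyme, from 5.77 to 7.48 for neurons and from 9.04 to 9.42 for blood. *Alx4* did not share this order, with its lowest pool being number 1 in both Neo/Null groups, number 2 in Neo/Wt nasal and number 3 in Neo/Wt maxilla. Without the 4 pools numbered 3, an alternative chosen after seeing the data, the *Alx1* difference between genotypes in maxilla was -0.66 at the brighter probe set (limma adjusted p = 0.0913).

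Among 11380 other genes detected in at least 1 group, those nearest to *Alx1* over the 12 pools were found by the root mean square difference between log2 values, after each gene's own mean was subtracted. This distance is in log2 units, and 0 would mean the same profile. The nearest was *Crabp1* at 0.13, followed by *Pid1*, which encodes a phosphotyrosine interaction domain protein, at 0.15 and *Foxf1* at 0.19. *Crym*, which encodes a thyroid hormone binding crystallin, and *Inmt*, a methyltransferase gene, were both at 0.22. For scale, the 2 *Alx1* probe sets were 0.17 apart, and the SD of *Alx1* itself over the pools was 0.89. All 5 genes were higher in nasal tissue, by 1.38 to 1.76 in Neo/Wt and by 1.73 to 1.94 in Neo/Null on the log2 scale. In maxillary tissue *Crabp1*, *Foxf1*, *Inmt* and *Pid1* had genotype differences of -0.40, -0.50, -0.34 and -0.33, whereas *Crym* had -0.06. Since the profiles include these groups, the differences describe the choice and are no further evidence.

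**Figure D5:**
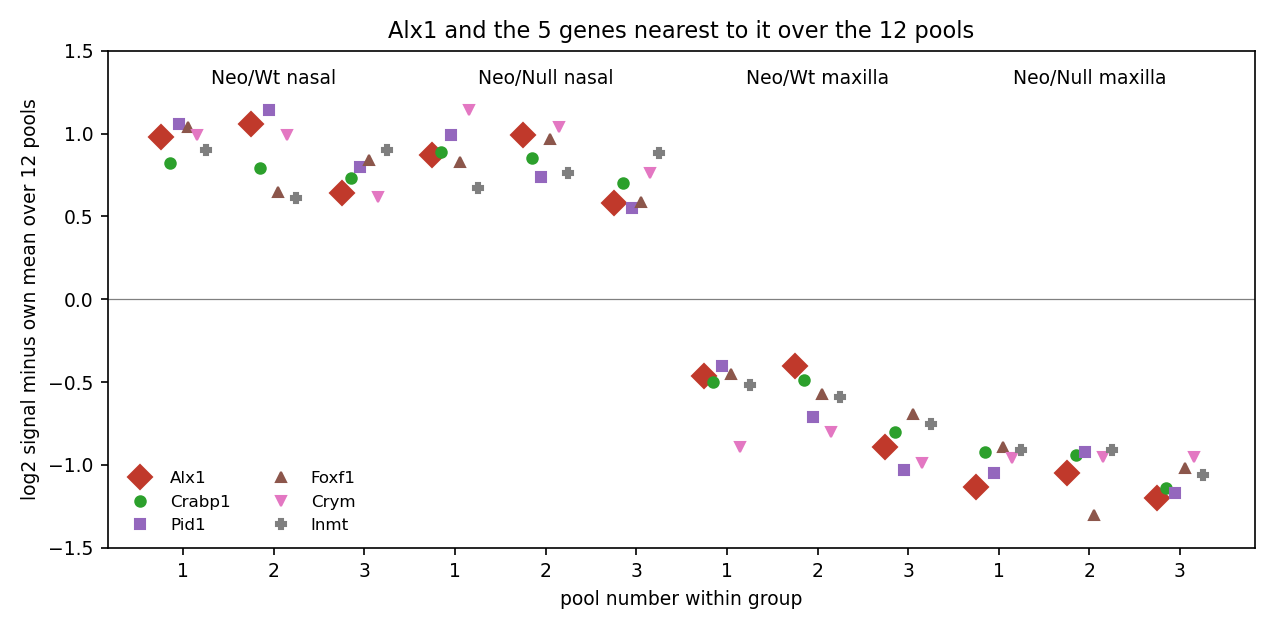
Log2 signal minus the gene's own mean over the 12 pools (vertical axis) for *Alx1* and the 5 genes nearest to it, in each pool of the 4 groups (horizontal axis). All 6 genes lie above 0 in every nasal pool and below 0 in every maxillary pool, and *Alx1* ranges from -1.20 to 1.06.

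*Alx4* stood at a distance of 0.50 from *Alx1* and was number 126 in that order. The genes nearest to *Alx4* were less near to it, relative to its SD of 0.57. *Col1a2*, which encodes a chain of type I collagen and is one of the crest mesenchyme markers, was at 0.21. The noncoding gene *Cerox1* followed at 0.24, *Sstr4*, which encodes a somatostatin receptor, at 0.26, *Hps1*, which encodes a protein of lysosome-related organelles, at 0.27 and *Hes5*, a target gene of Notch, at 0.28. *Alx1* was number 1076 in the order from *Alx4*. The SE of a difference between groups was 0.23 for *Alx4*, against 0.14 for the brighter *Alx1* probe set.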

How the data were processed

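The authors scaled each array to a common target intensity in the GeneChip Operating Software and deposited 1 value per probe set, which by its range is on a log2 scale. A file header names MAS5.0 signals and no source mentions a log, which leaves the probe summary method unknown. The deposited detection score of each group of 3 arrays (1 present, 0 variable, -1 absent) was used as given, and the rule behind it is not stated. The table with these calls has 12 further columns of per-sample values, which were not used. The 64 control probe sets were left out. Of the other 45037, the platform annotation gives 34945 1 gene symbol, 932 several and 9160 none.

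All 12 arrays entered a single limma 3.58.1 fit (R 4.3.3) that gives each of the 4 groups its mean, with 8 residual and 4.72 prior degrees of freedom. A probe set was tested for genotype in a prominence if called present in both genotypes there, between prominences if present in at least 1 of both groups, and for the difference of differences if tested for genotype in either prominence. The Benjamini-Hochberg adjustment covered all probe sets tested in a comparison, with a threshold of 0.05. A gene is represented by its brightest tested probe set. The precision is limited by the 3 pools per group.

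Whether pools that share a number deviate together from their group means was checked over 20153 probe sets. Correlations were 0.17 to 0.49 between genotypes in maxilla, -0.18 to 0.22 in nasal tissue and 0.20 to 0.30 between the prominences of a genotype. For pools of different number they were -0.36 to 0.23, -0.27 to 0.21 and -0.25 to 0.07 in the same order. The numbers come from the sample titles. The methods name no block, so the fit has none, and a replicate block was an alternative.

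The 2 genes, the gene lists and the comparisons were chosen with earlier results of these data known. The genes named are the members, *Tfap2a*, up to 4 genes of a list with the smallest p in the comparison described, and the 5 genes nearest to each member. No array annotation in hand names a genome build, so no coordinates are given.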

Additional observations from a re-analysis of the deposited data

Results flagged for a closer look

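The genotype difference of *Alx1* differed between the prominences at an unadjusted p under 0.05 at both of its probe sets. The nasal difference exceeded the maxillary one by 0.46 on the log2 scale at the brighter (limma unadjusted p = 0.0417) and by 0.64 at the dimmer (limma unadjusted p = 0.0194), and neither passed after adjustment (limma adjusted p = 0.999 for each). With the pool number as a block the unadjusted p was 0.00186 and 0.00430, with an adjusted p of 0.991 for each.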

How the results depend on the processing

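The nasal enrichment of *Alx1* passed limma's adjusted test in both genotypes under all alternatives tried, with log2 differences of 1.32 to 1.60 in Neo/Wt and 1.85 to 2.05 in Neo/Null at the brighter probe set when 1 array was left out. For *Alx4* in Neo/Wt it did not pass with no detection filter (0.89) or without the 4 pools numbered 3 (0.70), and ran from 0.74 to 1.00 with 1 array left out. In Neo/Null it did not pass without the pools numbered 3 (0.95), and ran from 0.90 to 1.43 with 1 array left out. The nasal genotype differences changed sign: that of *Alx1* was 0.10 at the other probe set and ran from -0.21 to 0.03 with 1 array left out, and that of *Alx4* was -0.06 without the pools numbered 3 and ran from -0.13 to 0.40. The difference of *Alx1* in maxilla kept its sign and did not pass under any alternative, with the lowest adjusted p under a replicate block (-0.54, adjusted p = 0.0701).

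Counts of called probe sets moved more. In nasal tissue 1 became 2 with no filter, 3 with a variance trend and robust estimation, 0 with a replicate block on the 6 nasal arrays and 2 without the pools numbered 3, and ran from 0 to 2 with 1 array left out. In maxilla 0 became 11 with the variance trend, 3 with array weights and 4 with a replicate block, and ran from 0 to 4. For the difference between prominences 0 became 1 with an offset of 16 and 1 with a replicate block, and ran from 0 to 1. The cause was not tested. The replicate block changed no call of *Alx1* or *Alx4*. The block on only the 6 arrays compared and the fit without the pools numbered 3 were chosen after seeing the data.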

Other observations

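Genes next to *Alx1* and *Alx4* on their chromosomes, 10 and 2, were looked up by order in the mouse assembly GRCm38.p6, after the other values were seen. Next to *Alx4*, *Ext2*, which encodes an enzyme of heparan sulfate synthesis, was called present in all 4 groups and had a log2 difference between nasal and maxillary tissue of -0.04 in Neo/Wt and 0.01 in Neo/Null (limma adjusted p = 0.862 and 0.953). *Tspan18*, a tetraspanin gene on the other side, ran against *Alx4*, with -0.34 in Neo/Wt and -0.43 in Neo/Null (limma adjusted p = 0.0301 and 0.00589). *Cd82*, which lies between *Tspan18* and *Alx4*, was called present in 0 of the groups. Next to *Alx1*, *Rassf9* had a genotype difference of 0.11 in maxilla, with no test, since it was not called present in both genotypes there. *Nts*, which encodes neurotensin and lies beyond *Rassf9*, had one of 0.14 (limma unadjusted p = 0.372). On the other side of *Alx1*, *Gm34298* and *Lrriq1* had no probe set of their own.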
